A study of Mus musculus with 8 samples.

Results

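Loss of Myc alone was compared with control in activated mouse B cells, over every gene that was measured well enough to be tested. The deposited table held 15681 genes. Of these, 12489 were at a log2 value of 0 or more, which is 1 RPM, in at least 2 of the 8 libraries, and they are the genes described here. RPM is the number of estimated reads per 1000000 of a library's effective size. The study compared B lymphocytes lacking the transcription factor Myc, its partner Max, or both. Mature B cells were sorted from spleens of mice 8 to 10 weeks old, cultured with 20 µg/ml lipopolysaccharide (LPS) and 20 ng/ml interleukin 4 (IL-4), and harvested at 72 h for RNA sequencing. LPS engages Toll-like receptor 4 on B cells, and with IL-4 it drives their division and the switch of antibody class to IgG1 and IgE. The 4 groups had 2 libraries each and were all cultured in the same way: control cells that are labelled heterozygous, Myc_KO, Max_KO and double_KO. No source used here gives the alleles, the Cre line or the genes at which the controls are heterozygous.

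The groups follow the sample titles, which are also the column names of the table. For 2 libraries another label disagrees. Myc_KO replicate 2 is called a double knock-out in its description, and double_KO replicate 1 is called a Myc knock-out in its own. Max was at 70.4 and 59.8 RPM in Myc_KO replicates 1 and 2, at 55.0 and 54.5 in the controls, and at 28.6 and 31.2 in double_KO. The Max level of Myc_KO replicate 2 thus lay above both controls, like that of replicate 1. Main counts are given below with and without that library. Nothing states that the 2 libraries of a group are from different animals, so each p-value reflects the spread between libraries, which may be technical.

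Myc is a helix-loop-helix leucine zipper protein that binds DNA only as a dimer with Max, mainly at the sequence CACGTG, called an E-box. Proteins of the Mxd family, Mnt and Mga also dimerise with Max, and they mostly repress genes at the same sites. In resting B cells Myc is low. Mitogens induce it within hours, and in activated lymphocytes it is known for raising ribosome production, glycolysis, nucleotide synthesis and cell growth before division.

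Myc itself (ENSMUSG00000022346, GRCm38 chromosome 15, 61985391 to 61990374, plus strand) was at 111 and 116 RPM in the controls and at 48.3 and 55.7 in Myc_KO. Both Myc_KO libraries were below both controls, and the mean fell from 114 ± 3.54 to 52.0 ± 5.26 (SD, n = 2), 2.19-fold (log2 change -1.13, SE 0.160, adjusted p = 0.000855). The remaining reads were counted over the whole gene, so they do not show whether the transcript left is complete. Max (ENSMUSG00000059436, chromosome 12, 76937269 to 76962201, minus strand) did not pass the test against control (log2 change 0.25, SE 0.117, adjusted p = 0.119), and with every library scaled to its total it was called higher (log2 change 0.39, adjusted p = 0.0228). Here and below, adjusted p-values come from limma, fitted to all 8 libraries and adjusted over the 12489 genes. A gene is called, and is said to have risen or fallen, where that value is under 0.05.

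A large part of the transcriptome differed between Myc_KO and control. Of 12489 genes, 5671 were called (45.4%), of which 2994 were higher (24%) and 2677 lower (21.4%) in Myc_KO. The change was at least 2-fold in 2072 of them (16.6%), 1039 higher and 1033 lower. The libraries of the 2 groups did not overlap in 9369 of the 12489 genes, and these include all 5671 that were called. The median log2 change was 0.78 among the genes that rose and -0.79 among those that fell, and 0 over all genes tested. Without Myc_KO replicate 2, the number of called genes was 4497, and without both libraries whose labels disagree it was 4447. Without control replicate 1 it was 3397, 1977 higher and 1420 lower, and without control replicate 2 the number that fell was 1729. Because the values are scaled to the bulk of the genes in each library, they say which share of the RNA a gene takes. With every library scaled to its total instead, the median of all genes moved to 0.15 and the share of higher genes among those called went from 52.8% to 66.4%. With so many genes called, a list of genes is near the background where its shares are close to 24% higher and 21.4% lower.

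The 4 libraries held 14880000 to 17890000 estimated reads. Reads from mitochondrial DNA made up 5.69% and 4.93% in the controls and 2.59% and 2.21% in Myc_KO. B cell markers were present throughout: the 10 marker genes summed to 16500 and 16700 RPM in the controls and to 18500 and 18400 in Myc_KO, and none was at 0 reads. Transcripts of other cell types were scarce but differed between the groups. Of 17 T cell markers, 15 rose and 1 fell. Cd3d, Cd3e, Cd3g, Cd4, Trac, Trbc1, Trbc2, Il7r and Bcl11b were under 1 RPM in both controls. They passed the filter through knock-out libraries alone, so the filter itself favoured a rise. All 17 T cell markers summed to 369 and 325 RPM in the controls and to 274 and 219 in Myc_KO. That sum includes Thy1, the marker that fell. Without Thy1 and Lck, which are abundant here, the T cell markers summed to 12.3 and 12.2 RPM in the controls and to 85.9 and 54.2 in Myc_KO. The T cell receptor transcript Cd3e was at 0 and 0.243 RPM in the controls and at 3.33 and 1.92 in Myc_KO. Of 7 tested markers of natural killer (NK) and cytotoxic cells, 6 rose. Nkg7 and Eomes passed the filter through knock-out libraries alone as well. The 10 in the table summed to 44.8 and 41.8 RPM in the controls and to 291 and 182 in Myc_KO. The NK cell receptors Ncr1, Klrk1 and Klrd1 were below the filter and had no reads in either control. In Myc_KO replicates 1 and 2 they were under 1 RPM, with 13 and 11 reads for Ncr1, 3 and 4 for Klrk1 and 8 and 5 for Klrd1. Of 5 tested myeloid markers, 3 rose and 2 fell. One that rose, Itgax, passed the filter through the Myc_KO libraries alone, so the filter itself favoured a rise. It was at 0.124 and 0.0606 RPM in the controls and at 1.31 and 1.34 in Myc_KO. Among markers below the filter, Csf1r, Fcgr3 and Cebpa went down in Myc_KO and Lyz2 went up, on few reads. With a filter of log2 2 or more in at least 2 libraries, 1 myeloid marker rose and 2 fell. All 9 in the table summed to 19.5 and 20.2 RPM in the controls and to 35.4 and 26.2 in Myc_KO. Most of the sum in Myc_KO was Adgre1, which rose from 0.809 and 1.76 RPM to 27.1 and 16.7. The 2 that fell were Cd68, from 12.0 and 10.7 RPM to 3.2 and 3.79, and Csf3r, from 3.47 and 5.16 to 0.46 and 0.736. Among erythroid and platelet genes, 1 was tested and fell, from 2.37 and 2.12 RPM to 0.718 and 0.962 (Itga2b, log2 change -1.40, adjusted p = 0.0410). That call was lost without any 1 of the 4 libraries compared (adjusted p from 0.0716 to 0.166). Among stromal and endothelial genes, 1 was tested and rose, from 33.6 and 39.9 RPM to 125 and 150 (Pecam1, an adhesion molecule that leukocytes also carry). The part of other cells in the results below was not tested.

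Myc sits in a network of proteins that compete for Max or for its relative Mlx. Of 15 genes of this network, 13 were tested, of which 3 rose and 3 fell, a share close to that of all genes. The 3 that fell include Myc itself, the gene knocked out in this group. Mxi1 was at 36.2 and 43.1 RPM in the controls and at 9.4 and 7.31 in Myc_KO. Mxd1 was at 37.7 and 37.8 RPM in the controls and at 15.5 and 17.2 in Myc_KO. Both encode Mxd-family repressors, and both fell, Mxi1 4.75-fold (log2 change -2.25, SE 0.239, adjusted p = 0.000233) and Mxd1 2.31-fold (log2 change -1.21, SE 0.200, adjusted p = 0.00183). Mga, a large Max partner that belongs to a repressive Polycomb complex, was at 64.2 and 70.5 RPM in the controls and rose to 141 and 136 (log2 change 1.04, SE 0.103, adjusted p = 0.000168). Mycbp2, a ubiquitin ligase first found as a Myc-binding protein, rose from 156 and 164 RPM to 421 and 427, a 2.65-fold change. The Mlx partner Mlxip, a glucose-responsive factor, was at 115 and 121 RPM in the controls and at 168 and 194 in Myc_KO (log2 change 0.61, adjusted p = 0.0108). That call was lost without control replicate 1 (adjusted p = 0.0732) and without Myc_KO replicate 2 (0.0608). Mnt was at 22.3 and 28.5 RPM in the controls and at 22.7 and 38.1 in Myc_KO, so the groups overlapped. Without Myc_KO replicate 1 it was called higher (log2 change 0.59, adjusted p = 0.0375). Its log2 change was 0.22 (adjusted p = 0.466), -0.15 without Myc_KO replicate 2, and 0.59 without Myc_KO replicate 1 (adjusted p = 0.0375).

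**Figure D1:**
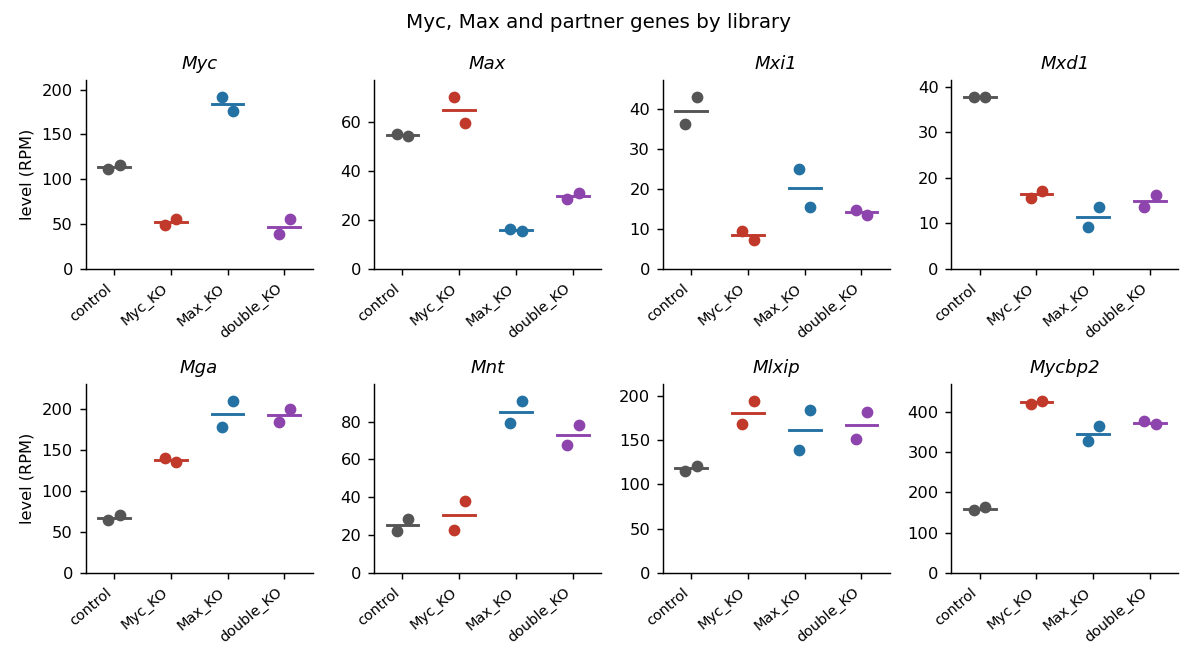
Levels of 8 genes of the Myc, Max and Mlx network in each of the 8 libraries (RPM, linear axes from 0). Points are libraries, bars are group means of 2 libraries. Mxi1 and Mxd1 are lower and Mga and Mycbp2 higher in both Myc_KO libraries than in both controls, while Mnt overlaps between these 2 groups.

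Genes that textbooks list as induced by Myc mostly fell. Of 24 tested, 14 fell and 1 rose, with a median log2 change of -0.60, against 21.4% lower and a median of 0 over all genes. Ldha, which turns pyruvate into lactate, was at 1990 and 1840 RPM in the controls and at 365 and 362 in Myc_KO (log2 change -2.40, SE 0.210, adjusted p = 0.000102). Nop56, a core protein of the small nucleolar particles that modify ribosomal RNA, was at 400 and 342 RPM in the controls and at 189 and 192 in Myc_KO. The nucleolar chaperone Npm1 was at 1420 and 1220 RPM in the controls and at 674 and 689 in Myc_KO. In these 3 genes the Myc_KO libraries were close to each other and well below both controls. Cdk4, the kinase partner of D-type cyclins, fell less, from 271 and 254 RPM to 176 and 165 (log2 change -0.62, SE 0.0793, adjusted p = 0.000548). Apex1, an endonuclease of base excision repair, was at 144 and 130 RPM in the controls and at 75.2 and 81.5 in Myc_KO (log2 change -0.81, SE 0.108, adjusted p = 0.000671). With groups taken from the descriptions, the log2 change of Apex1 was -0.24 (adjusted p = 0.649). The translation initiation helicase Eif4a1 fell from 832 and 735 RPM to 479 and 501 (log2 change -0.67, adjusted p = 0.000686). The one gene of the list that rose was Ccnd2, which encodes cyclin D2, from 579 and 540 RPM to 1520 and 1380 (log2 change 1.38, SE 0.0881, adjusted p = 4.73e-05). Odc1, the rate-limiting enzyme of polyamine synthesis, was at 187 and 175 RPM in the controls and at 156 and 200 in Myc_KO, so the groups overlapped.

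The promoters of 4 of these genes are printed because their list is defined by Myc, whose dimer with Max binds CACGTG. Of the 15 called genes of the list, 12 had a promoter window in the table, and these 4 have the lowest adjusted p of those with that sequence in it. Each is the 250 bases before the gene's start, 5′ to 3′ on the strand of the gene, from RefSeq with the build GRCm38.p6, at chr7:46845554-46845803 (plus strand) for Ldha, chr10:127063285-127063534 (plus) for Cdk4, chr14:50924699-50924948 (plus) for Apex1 and chr11:69672424-69672673 (minus) for Eif4a1. Capitals mark CACGTG, which reads the same on both strands.
Ldha: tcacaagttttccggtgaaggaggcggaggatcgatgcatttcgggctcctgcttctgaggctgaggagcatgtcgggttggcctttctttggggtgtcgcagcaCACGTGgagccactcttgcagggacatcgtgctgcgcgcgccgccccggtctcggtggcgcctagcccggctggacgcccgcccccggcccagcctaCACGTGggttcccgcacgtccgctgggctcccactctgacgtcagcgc
Cdk4: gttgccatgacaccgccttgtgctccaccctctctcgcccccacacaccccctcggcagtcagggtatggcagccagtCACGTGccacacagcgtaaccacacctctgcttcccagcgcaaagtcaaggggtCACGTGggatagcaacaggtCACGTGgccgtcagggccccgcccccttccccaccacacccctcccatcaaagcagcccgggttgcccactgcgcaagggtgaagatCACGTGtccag
Apex1: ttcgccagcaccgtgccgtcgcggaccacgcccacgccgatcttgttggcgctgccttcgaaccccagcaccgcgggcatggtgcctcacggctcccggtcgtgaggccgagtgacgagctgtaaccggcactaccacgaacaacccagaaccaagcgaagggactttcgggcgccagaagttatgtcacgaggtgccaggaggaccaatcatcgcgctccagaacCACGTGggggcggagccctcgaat
Eif4a1: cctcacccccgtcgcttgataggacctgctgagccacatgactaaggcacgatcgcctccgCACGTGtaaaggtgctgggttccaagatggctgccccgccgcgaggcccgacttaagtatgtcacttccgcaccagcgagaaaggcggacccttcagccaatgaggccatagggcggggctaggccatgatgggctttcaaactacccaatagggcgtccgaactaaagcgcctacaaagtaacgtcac
The printed stretch held 2 copies in Ldha, 4 in Cdk4, 1 in Apex1 and 1 in Eif4a1. Over all 32851 promoter windows of 300 bases (250 before to 50 after the start), 7.15% held CACGTG. Among windows of the protein-coding genes tested, 9116 of 11321 of which had a window, the share was 10.2%. It was 11% for genes that fell (284 of 2588 windows), 10.1% for genes that rose (290 of 2885) and 9.98% for genes not called (612 of 6134). These 3 shares lay close together. CACGCG, a lower-affinity E-box searched on both strands (as CACGCG or CGCGTG), was in 9.27% of all windows, and in 18.5%, 16.5% and 17.1% of the windows of genes that fell, rose or were not called. The median GC content of these 3 sets was 60.7%, 61.7% and 60.3%. A match describes the letters of a window and is neither a binding site nor a cause of a change.

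Transcripts of the protein-making machinery were mostly lower in Myc_KO. All 27 tested genes for cytosolic ribosomal proteins fell, with a median log2 change of -1.23 and a range of -1.51 to -0.72. Together they summed to 62800 and 57500 RPM in the controls and to 25900 in each Myc_KO library. Rps3, of the small subunit, was at 2620 and 2480 RPM in the controls and at 1040 and 1050 in Myc_KO (log2 change -1.29, SE 0.0772, adjusted p = 4.66e-05). Rpl28, of the large subunit, fell from 2250 and 2030 RPM to 774 and 733. Ribosomal protein genes have many near-identical pseudogenes, between which the estimate divides reads, so single values are uncertain. In bulk RNA, fewer cells of a type and less RNA per cell cannot be told apart.

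Genes for ribosome assembly followed in part. Of 29 tested, 16 fell and 2 rose, with a median log2 change of -0.37. The 16 became 9 without control replicate 1. Besides Nop56 and Npm1, the ribosomal RNA methylase Nop2 fell from 142 and 127 RPM to 75.1 and 71.7, and Nhp2, of the pseudouridylation particles, fell from 124 and 97.1 to 51.9 and 58.3. Utp20, of the small subunit processome, was one of the 2 that rose, from 64.9 and 60.4 RPM to 87.4 and 91.2 (log2 change 0.51, adjusted p = 0.00218). The other was Ubtf, an activator of RNA polymerase I (log2 change 0.36, adjusted p = 0.0127), a call lost without control replicate 1 (adjusted p = 0.0812) or without Myc_KO replicate 2 (0.0684). Of 22 translation factors tested, 14 fell and 3 rose, with a median of -0.43, and 1 of the 3 was still called without control replicate 2 or without Myc_KO replicate 2. Eef1b2, which recharges elongation factor 1, fell from 1280 and 1190 RPM to 507 and 469 (log2 change -1.34, SE 0.0785, adjusted p = 4.64e-05). The paralogs that bind and restrain the cap-binding protein eIF4E went apart: Eif4ebp1 fell from 46.7 and 49.2 RPM to 16.3 and 18.4, and Eif4ebp2 rose from 57.5 and 59.2 to 89.6 and 87.8. 

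All 13 mitochondrial DNA-encoded messenger RNAs fell, with a median log2 change of -1.28. mt-Co1, a subunit of cytochrome c oxidase and the most abundant of them, was at 23300 and 21200 RPM in the controls and at 10300 and 8560 in Myc_KO. mt-Nd4, a subunit of complex I, was at 3670 and 2950 RPM in the controls and at 1210 and 1060 in Myc_KO. No library of one group reached those of the other for either gene, as for 9369 of all 12489 genes tested. Nuclear genes of the tricarboxylic acid cycle and glutamine use changed less: of 22 tested, 10 fell and 3 rose, with a median of -0.26. The 10 became 3 without control replicate 1, 6 without control replicate 2 or Myc_KO replicate 1, and 5 without Myc_KO replicate 2. The glutamine transporter Slc1a5 fell most, from 377 and 348 RPM to 154 and 177, and Fh1, fumarate hydratase, fell from 132 and 128 to 87.0 and 73.3.

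**Figure D2:**
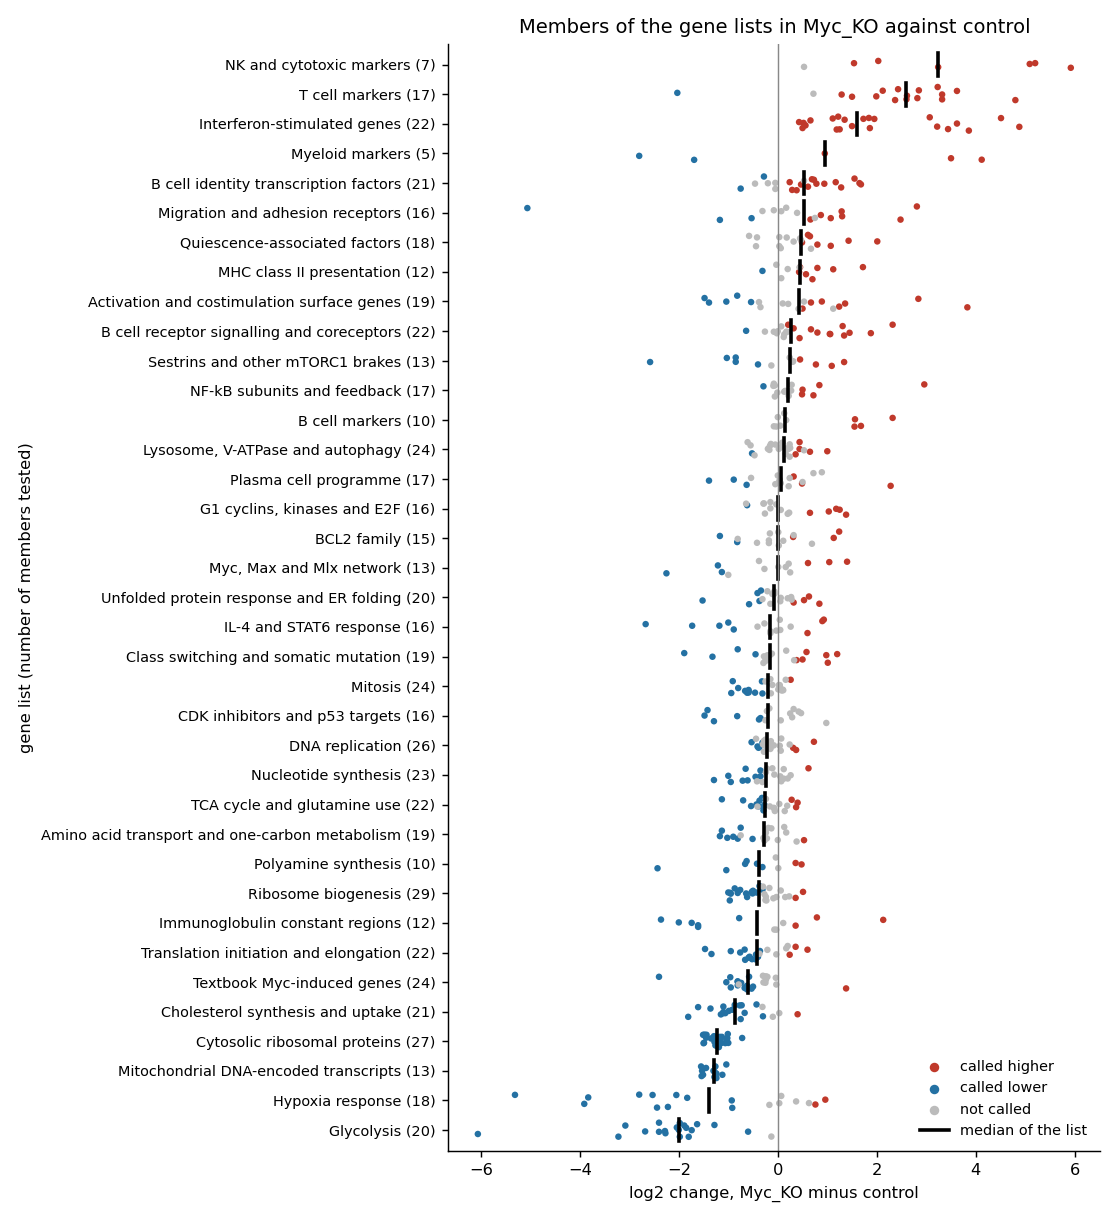
Log2 change in Myc_KO against control for each tested gene of the lists with at least 5 tested genes. Each point is a gene (red higher and called, blue lower and called, grey not called), the black bar is the list median, and the number tested stands in parentheses. The medians of glycolysis, hypoxia, mitochondrial transcripts and ribosomal proteins lie farthest to the left of 0, and those of NK markers, T cell markers and interferon-stimulated genes farthest to the right.

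Glycolysis was the metabolic pathway with the lowest median: of 20 genes tested, 19 fell and none rose, with a median log2 change of -1.99. Glucose enters through transporters, is split into pyruvate by a chain of enzymes, and leaves as lactate through monocarboxylate carriers, and genes of all 3 stages fell. Summed over the 20 genes, levels were 21500 and 20300 RPM in the controls and 4930 and 4800 in Myc_KO. Of the glucose transporters, Slc2a1 fell from 183 and 165 RPM to 46.2 and 58.5 (log2 change -1.74, SE 0.330, adjusted p = 0.00352), and Slc2a3 from 82.2 and 105 to 27.7 and 32.2. Hexokinase 2 (Hk2), the inducible first enzyme, was at 106 and 102 RPM in the controls and at 25.7 and 24.7 in Myc_KO, 4.11-fold lower (log2 change -2.04, SE 0.413, adjusted p = 0.00478, and 0.0535 with groups from the descriptions). Hexokinase 1 (Hk1) fell less, from 170 and 178 to 124 and 107, with a log2 change of -0.60. 

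Tpi1, triosephosphate isomerase, was at 1370 and 1320 RPM in the controls and at 138 and 152 in Myc_KO, 9.30-fold lower (log2 change -3.22, SE 0.249, adjusted p = 6.87e-05). Aldoc, an aldolase, was at 146 and 166 RPM in the controls and at 18.6 and 18.1 in Myc_KO, 8.48-fold lower. Pgk1, phosphoglycerate kinase, was at 1860 and 1840 RPM in the controls and at 289 in each Myc_KO library, 6.40-fold lower. In each of these the Myc_KO libraries lay close together, far from both controls. Gapdh, often used as a reference gene, fell from 6370 and 5730 RPM to 1560 and 1460 (log2 change -2.00, SE 0.142, adjusted p = 5.65e-05). Pkm, pyruvate kinase, fell 3.95-fold, and Pdk1, which blocks the entry of pyruvate into mitochondria, fell 4.82-fold. Slc16a3, the lactate exporter, had the largest change of the list, from 188 and 197 RPM to 2.87 and 2.83, 66.8-fold lower (log2 change -6.06, SE 0.620, adjusted p = 0.000196). Slc16a1, a second lactate carrier, was at 44.2 and 45.8 RPM in the controls and at 39.7 and 42.7 in Myc_KO, and was the one gene of the list not called.

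Genes of the response to low oxygen, several of which encode glycolytic regulators, also fell. Of 18 tested, 11 fell and 2 rose, with a median log2 change of -1.38. Bnip3, a mediator of mitophagy, was at 191 and 190 RPM in the controls and at 13.8 and 11.7 in Myc_KO, 15.0-fold lower. Egln3, an oxygen-sensing hydroxylase, was at 69.9 and 60.2 RPM in the controls and at 1.5 and 1.71 in Myc_KO, 39.8-fold lower. Vegfa, an angiogenic factor, fell from 119 and 137 RPM to 23.3 and 20.8 (log2 change -2.53, SE 0.442, adjusted p = 0.00236). The 2 that rose encode the dimer that activates these genes: Hif1a went from 59.5 and 60.3 RPM to 120 and 113 (log2 change 0.96, adjusted p = 0.000127), and Arnt from 48.8 and 50.6 to 80.7 and 87.6. Vhl, which marks the Hif1a protein for degradation, was at 38 and 39.4 RPM in the controls and at 33.8 and 35.1 in Myc_KO and was not called. The 14 genes with the lowest log2 changes were taken among called genes that did not overlap and reached 10 RPM in 1 group. Several of them belong with these lists. Ak4, an adenylate kinase of the mitochondrial matrix, fell from 46.1 and 43.8 RPM to 0.522 and 0.534, 80.6-fold. Mgarp, a mitochondrial protein, had 484 reads in the 2 controls together and 1 read in the 2 Myc_KO libraries, a ratio of 506 (95% interval of counting error 90.4 to 20000). Other genes among these 14 were Il1r2, the decoy receptor for interleukin 1, from 123 and 112 RPM to 3.59 and 3.85, and Batf3, a relative of the switch factor Batf, from 29.7 and 27.4 to 2.02 and 1.92.

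**Figure D3:**
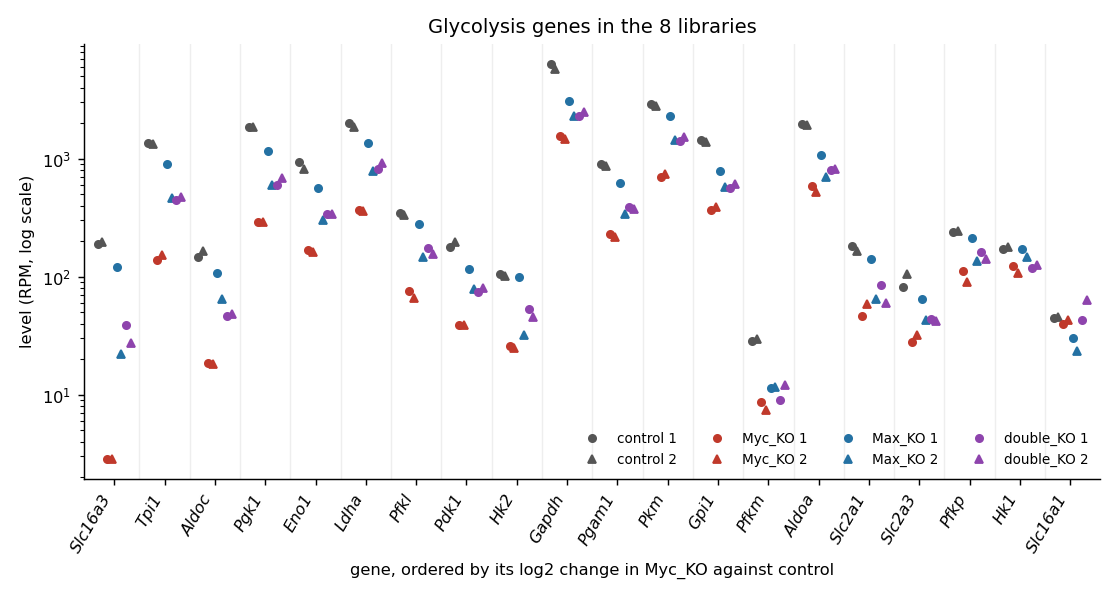
Levels of the 20 glycolysis genes in all 8 libraries (RPM, log axis). Circles are replicate 1 and triangles replicate 2 of each group. Both Myc_KO libraries lie below both controls in every gene, though for Slc16a1 the difference was not called. Over all genes tested, these 2 groups did not overlap in 9369 of 12489.

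Transcripts for cholesterol synthesis mostly fell, while most of those for nucleotide synthesis were not called. Of 21 genes of cholesterol synthesis and uptake, 17 fell and 1 rose, with a median log2 change of -0.87. Fdps, farnesyl diphosphate synthase, was at 298 and 292 RPM in the controls and at 97.6 and 95.3 in Myc_KO (log2 change -1.61, SE 0.0933, adjusted p = 4.58e-05). Mvd, of the mevalonate pathway, fell from 111 and 112 RPM to 33.8 and 30, and Lss, which closes the sterol ring, from 121 and 122 to 46.9 and 47.7. The one gene that rose was Srebf2, the transcription factor that drives this pathway, from 432 and 462 RPM to 571 and 609 (log2 change 0.40, adjusted p = 0.0155), a call lost without control replicate 1 (adjusted p = 0.0994), without Myc_KO replicate 2 (0.0712) or with groups from the descriptions (0.0729).

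Of 23 genes of nucleotide synthesis, 9 fell and 1 rose, with a median log2 change of -0.24. Impdh2, which commits purines to guanine nucleotides, fell from 390 and 359 RPM to 195 and 180 (log2 change -1, SE 0.0791, adjusted p = 7.27e-05). Thymidine kinase 1 (Tk1) fell from 183 and 184 to 91.8 and 97.6. The ribonucleotide reductase subunits, which make deoxynucleotides, were not called. The regulated subunit, Rrm2, was at 289 and 276 RPM in the controls and at 311 and 303 in Myc_KO (adjusted p = 0.207), and with every library scaled to its total it was called higher (log2 change 0.27, adjusted p = 0.0123). Of 19 genes of amino acid transport and one-carbon metabolism, 7 fell and 1 rose, with a median of -0.27. Shmt1 and Shmt2, which pass one-carbon units from serine in cytosol and mitochondria, fell from 90.2 and 83.7 to 41.4 and 44.2 and from 261 and 231 to 135 and 145. With groups from the descriptions Shmt1 was not called (log2 change -0.47, adjusted p = 0.355). Phgdh, the first enzyme of serine synthesis, fell from 257 and 235 to 148 and 145. The leucine transporter Slc7a5 was at 133 and 121 RPM in the controls and at 102 and 122 in Myc_KO, which overlapped.

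Of 10 genes of polyamine synthesis, 6 fell and 2 rose. Spermidine synthase (Srm) fell from 139 and 110 RPM to 54.2 and 66.1 (log2 change -1.04, SE 0.136, adjusted p = 0.000609), and the oxidase Smox from 8.03 and 11.5 to 1.70 and 1.82. Amd1, which supplies the aminopropyl donor, was one of the genes that rose, from 92.7 and 88.9 to 133 and 120, and Azin1, an inhibitor of antizyme, was the other, from 143 and 140 to 186 and 178. Among 13 sestrins and other brakes of mTORC1, the kinase complex that senses nutrients, 4 rose and 5 fell, with a median log2 change of 0.24. The 5 became 3 without either control or without Myc_KO replicate 1. Sesn1 rose from 16.2 and 17.2 RPM to 46.0 and 38.9, Sesn3 from 64.6 and 71.1 to 142 and 147, and Tsc1 from 39.0 and 38.2 to 66.3 and 65.3. Sesn2 fell from 56.0 and 66.5 to 33.4 and 34.4, and Ddit4, which is also induced by low oxygen, from 136 and 180 to 25.1 and 27.2 (log2 change -2.58, SE 0.291, adjusted p = 0.000293). Of 24 genes of lysosomes and autophagy, 5 rose (3 without control replicate 1) and 1 fell, with a median of 0.12, both shares below those over all genes.

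Most genes of DNA replication were not called. Of 26, 6 fell, 3 rose and 17 were not called, which is near the share over all genes for falls (21.4%) and below it for rises (24%), with a median log2 change of -0.21. The number that fell was 1 without control replicate 1 or Myc_KO replicate 2, 2 without control replicate 2, 12 after quantile normalization and 1 with every library scaled to its total. Pola1, the catalytic subunit of DNA polymerase alpha, rose from 44.2 and 45.8 RPM to 76.8 and 72.3 (log2 change 0.73, SE 0.0838, adjusted p = 0.000323). Mcm4, of the replicative helicase, rose from 215 and 205 to 271 and 269, and Gmnn, which prevents re-licensing, fell from 81.4 and 72.3 to 51.3 and 54.8. Of 24 genes of mitosis, 11 fell (7 without control replicate 1) and 1 rose, with a median of -0.20. The largest falls were in Birc5, the survivin subunit of the chromosomal passenger complex, from 193 and 167 RPM to 88.5 and 98.6 (log2 change -0.94, SE 0.111, adjusted p = 0.000373), and in Cenpa, the centromeric histone, from 190 and 197 to 89.2 and 118. Ube2c, which works with the anaphase-promoting complex, fell from 190 and 179 to 99.0 and 113, and Aurkb, the passenger complex kinase, from 176 and 167 to 112 and 115. The proliferation marker Mki67 was at 1030 and 943 RPM in the controls and at 1090 and 1000 in Myc_KO, and the groups overlapped. After quantile normalization it was called higher (log2 change 0.51, adjusted p = 0.00587).

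Of 16 genes of G1 cyclins, kinases and E2F factors, 5 rose and 1 fell. Besides Ccnd2, the pocket proteins that hold E2F in check rose together: Rb1 from 46.6 and 50.5 RPM to 99.1 and 99.6 (log2 change 1.03, SE 0.0834, adjusted p = 7.68e-05), Rbl1 from 54.7 and 53.7 to 135 and 112, and Rbl2 from 54.1 and 51.4 to 81.6 and 84.5. Cdk6 rose from 21.6 and 17.9 to 47.2 and 46.4, while its relative Cdk4 fell, as given above. Of 16 CDK inhibitors and p53 targets, 6 fell and none rose. Cdkn1a, which encodes p21, was at 43.4 and 62.0 RPM in the controls and at 20.8 and 16.6 in Myc_KO (log2 change -1.48, SE 0.257, adjusted p = 0.00231). Zmat3 fell from 43 and 52.5 to 19.7 and 19.0. Of 15 genes of the BCL2 family, 3 rose and 2 fell, no more than the shares over all genes (24% higher and 21.4% lower). Of the 3, only Bcl2 was still called when any 1 of the 4 libraries compared was left out. The survival factor Bcl2 rose from 62.9 and 60.7 RPM to 141 and 130 (log2 change 1.13, SE 0.0904, adjusted p = 7.35e-05). The death effectors and triggers that fell were Bax, from 151 and 159 to 87.1 and 87.8, and Bcl2l11, which encodes Bim, from 138 and 139 to 59.4 and 63.7. Mcl1 was at 536 and 531 RPM in the controls and at 589 and 564 in Myc_KO and was not called, except higher with every library scaled to its total (log2 change 0.26, adjusted p = 0.0129).

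Transcription factors of B cell identity mostly rose. Of 21 tested, 14 rose and 2 fell, with a median log2 change of 0.53, against 24% higher and a median of 0 over all genes. The 14 became 7 without control replicate 1, and 9 without control replicate 2 or without Myc_KO replicate 2. The 4 named next remained called in each of these fits. Pax5, which commits cells to the B lineage and must be shut off in plasma cells, was at 382 and 375 RPM in the controls and at 1070 and 1380 in Myc_KO (log2 change 1.68, SE 0.182, adjusted p = 0.000252). Ebf1, which acts with Pax5, rose from 55.0 and 54.3 to 143 and 178. Bach2, a repressor of plasma cell differentiation, rose from 59.3 and 67.7 to 160 and 246. Pou2f2, which encodes Oct2, rose from 178 and 182 to 435 and 440. In all 4 genes both Myc_KO libraries were more than 2-fold above both controls. Tcf3, which encodes E2A, went the other way, from 402 and 400 RPM to 247 and 229 (log2 change -0.75, SE 0.102, adjusted p = 0.000721). Among 10 B cell markers, 4 rose and none fell. Ms4a1, which encodes CD20, rose from 448 and 399 RPM to 1120 and 1380, and Cr2, which encodes the complement receptor CD21, from 13.8 and 10.2 to 61.9 and 56.8. Cd79b, a signalling chain of the B cell receptor, was at 1080 and 1060 RPM in the controls and at 1180 and 1220 in Myc_KO (adjusted p = 0.161). It was called higher after quantile normalization (log2 change 0.65, adjusted p = 0.00106) and with every library scaled to its total (0.31, adjusted p = 0.0184).

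Factors linked to quiescence rose in part. Of 18, 7 rose and none fell, with a median log2 change of 0.46. Foxp1, which holds mature B cells in a resting state, was at 99.7 and 92.4 RPM in the controls and at 346 and 434 in Myc_KO (log2 change 2.01, SE 0.154, adjusted p = 6.85e-05). The antiproliferative gene Btg1 rose from 205 and 209 to 449 and 421, and Klf6 from 18.4 and 18.8 to 51.8 and 48.6. Txnip, an inhibitor of glucose uptake that Myc is known to repress, was at 240 and 206 RPM in the controls and at 126 and 220 in Myc_KO, which overlapped. Without Myc_KO replicate 2 it was called lower (log2 change -0.83, adjusted p = 0.00346). Without Myc_KO replicate 2 it was called lower (log2 change -0.83, adjusted p = 0.00346).

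Of 22 genes of B cell receptor signalling and its coreceptors, 12 rose and 1 fell, with a median log2 change of 0.26. The inhibitory coreceptor Cd72 rose from 81.7 and 96.3 RPM to 352 and 304 (log2 change 1.88, SE 0.151, adjusted p = 7.40e-05). The kinases Prkcb, Lyn and Syk rose from 101 and 93.8, 73.3 and 79.6, and 273 and 285 RPM to 237 and 245, 150 and 169, and 528 and 631. Cd81, a tetraspanin of the coreceptor, was the gene that fell, from 168 and 187 to 119 and 108. Of 12 genes of MHC class II presentation, 7 rose and 1 fell, with a median of 0.45. With groups from the descriptions 4 rose. Ciita, the master activator of class II genes, rose from 168 and 198 RPM to 546 and 661 (log2 change 1.72, SE 0.146, adjusted p = 9.06e-05), and Ctss, the protease that trims the invariant chain, from 184 and 189 to 410 and 401. The classical class II gene H2-Aa rose less, from 1770 and 1810 to 2550 and 2760 (log2 change 0.57, adjusted p = 0.00327, and 0.0722 with groups from the descriptions). Cd74, the invariant chain, was at 7770 and 7600 RPM in the controls and at 8800 and 8860 in Myc_KO (adjusted p = 0.135), and was called higher after quantile normalization (0.0245), with every library scaled to its total (0.0124) and with robust variance estimates (0.0373). Reads of similar H2 genes are divided by the estimate, so their single values are uncertain.

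Surface genes of activation and costimulation went both ways: of 19, 7 rose and 5 fell (3 without control replicate 2 or without Myc_KO replicate 2), with a median log2 change of 0.42. Icosl, the ligand of the T cell costimulator ICOS, was at 2.74 and 4.61 RPM in the controls and at 55.0 and 47.2 in Myc_KO, 14.2-fold higher. Tnfrsf13b, which encodes the receptor TACI, rose from 259 and 262 to 670 and 663. Cd86, which rises when B cells are activated, fell from 168 and 170 to 95.3 and 95.5 (log2 change -0.82, SE 0.104, adjusted p = 0.000525), and the death receptor Fas from 54.3 and 68.9 to 25.4 and 18.9. Of 16 migration and adhesion receptors, 7 rose and 3 fell. The sphingosine-1-phosphate receptors S1pr1 and S1pr3 rose, S1pr1 from 3.86 and 3.70 RPM to 21.0 and 33.8 and S1pr3 from 12.6 and 21.5 to 90.4 and 94.3. Sphk1, which makes their ligand, fell from 11.1 and 9.19 RPM to 0.197 and 0.374. The integrin chain Itgal rose from 282 in each control to 641 and 545. Of 17 NF-kB subunits and feedback genes, 5 rose and 1 fell. Over all genes 24% rose, which is near, and 21.4% fell. Nfkbiz, an atypical inhibitor, rose most, from 28 and 32.7 RPM to 263 and 211 (log2 change 2.96, SE 0.246, adjusted p = 8.38e-05). Of 16 genes of the IL-4 response, 3 rose and 5 fell (2 without either control, 3 without Myc_KO replicate 1). The counts of 3 and 5 are near the shares over all genes. Il4ra, the receptor for the IL-4 in the culture, fell from 1540 and 1430 RPM to 728 and 760 (log2 change -1, SE 0.146, adjusted p = 0.00101, and -0.46 with 0.0529 after quantile normalization), and Socs1, an inhibitor of its signal, rose from 112 and 141 to 244 and 225.

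Antibody class switching joins a new constant region to the rearranged heavy chain. Batf, a transcription factor needed for switching, fell from 395 and 297 RPM to 170 and 110 (log2 change -1.32, SE 0.247, adjusted p = 0.00327). Over the 19 genes of class switching and somatic mutation, 6 rose and 4 fell, near the shares over all genes (24% higher and 21.4% lower). The genes that rose include the end-joining ligase Lig4, from 5.35 and 5.58 RPM to 14.9 and 10.6, and Trp53bp1, which protects broken ends, from 62.3 and 65.6 to 93.9 and 97.4. Ung, which removes uracil from DNA, was at 39.4 and 36.8 RPM in the controls and at 31.3 and 31.4 in Myc_KO and was not called (adjusted p = 0.0872), but was called lower after quantile normalization (log2 change -0.35, adjusted p = 0.0391).

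The constant regions of antibodies went different ways. Of 12 tested, 3 rose and 6 fell, with a median log2 change of -0.43. IgM (Ighm) was at 10500 and 10300 RPM in the controls and at 10600 and 9790 in Myc_KO, with overlapping groups. IgD (Ighd), which naive cells carry and activated cells lose, was at 186 and 148 RPM in the controls and at 699 and 753 in Myc_KO, 4.38-fold higher (log2 change 2.13, SE 0.148, adjusted p = 5.61e-05). The classes to which LPS with IL-4 directs switching were lower. IgG1 (Ighg1) fell from 2670 and 2330 RPM to 880 and 761 (log2 change -1.61, SE 0.114, adjusted p = 5.61e-05), and IgE (Ighe) from 370 and 436 to 181 and 79.9 (log2 change -1.74, SE 0.379, adjusted p = 0.00665). The switched heavy chains together summed to 3310 and 3040 RPM in the controls and to 1220 and 992 in Myc_KO. The kappa light chain (Igkc) fell from 6160 and 6030 to 3760 and 3340 (log2 change -0.78, adjusted p = 0.00154, and -0.26 with 0.117 after quantile normalization). Reads of a constant region include unspliced and germline transcripts, so they do not count switched cells, and similar constant regions share reads.

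The plasma cell genes went both ways. Of 17 tested, 3 rose and 3 fell, a smaller share than over all genes. The 3 that rose became 0 without control replicate 1 and 1 without control replicate 2 or without Myc_KO replicate 2. Xbp1, the driver of antibody secretion, fell from 793 and 680 RPM to 431 and 364 (log2 change -0.89, SE 0.159, adjusted p = 0.00260), and Mzb1, an antibody-folding chaperone, from 791 and 838 to 565 and 492. Prdm1, which encodes Blimp-1, was at 39.0 and 39.1 RPM in the controls and at 44.1 and 69.2 in Myc_KO (adjusted p = 0.284), and Jchain, which links IgM pentamers, at 210 and 255 against 281 and 260. Neither of these passed the test. Of 20 genes of the unfolded protein response, 4 rose (2 without control replicate 1) and 5 fell (0 without control replicate 1, 1 without Myc_KO replicate 1). The counts of 4 and 5 are near the shares over all genes (24% higher and 21.4% lower). Eif2ak3, which encodes the stress sensor PERK, rose from 48.1 and 51.1 RPM to 82.6 and 95.3.

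**Figure D4:**
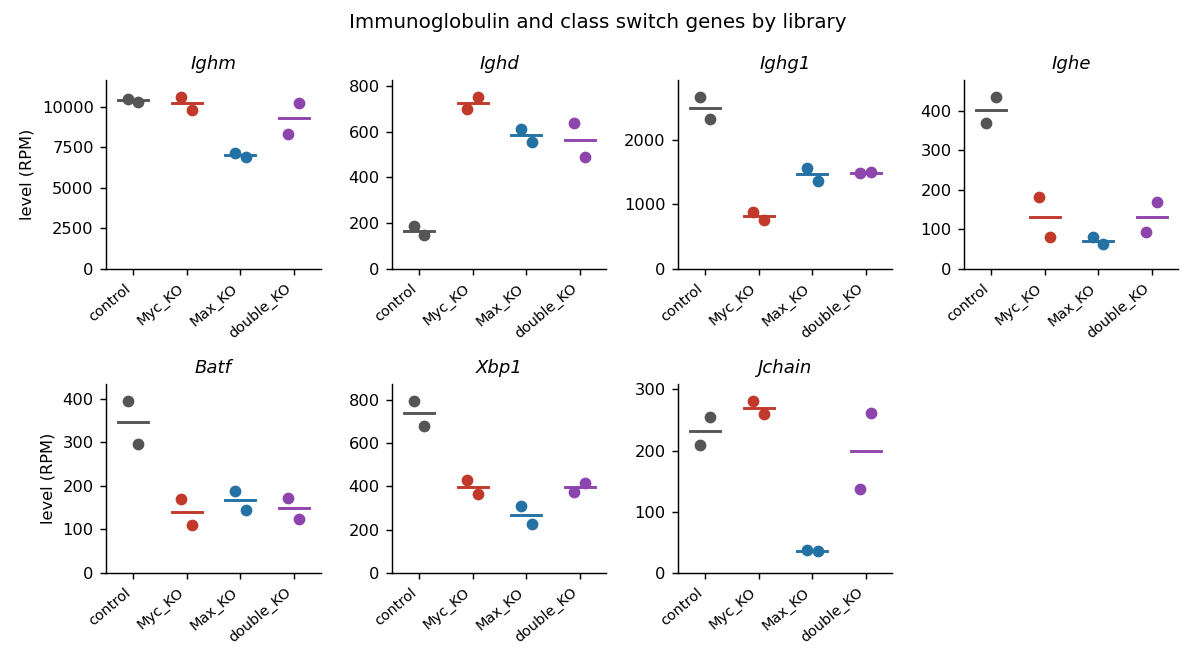
Levels of 7 genes of class switching and antibody secretion in each of the 8 libraries (RPM, linear axes from 0). Points are libraries and bars are means of 2 libraries. Batf, Ighg1, Ighe and Xbp1 are lower and Ighd higher in both Myc_KO libraries than in both controls, while Ighm overlaps between these 2 groups.

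Interferon-stimulated genes all rose. Of 22 tested, 22 were called higher, with a median log2 change of 1.61, and together they summed to 1450 and 1420 RPM in the controls and to 3230 and 3170 in Myc_KO. Ifit1, a sensor of foreign RNA ends, was at 9.83 and 10.2 RPM in the controls and at 98.9 and 72.2 in Myc_KO (log2 change 3.07, SE 0.251, adjusted p = 8.04e-05). The cytosolic RNA sensor Ifih1 rose from 38.5 and 47.5 to 164 and 147. The factors that carry the interferon signal rose too: Irf9 from 63.6 and 67.0 RPM to 146 and 190, and Irf7 from 40.2 and 44.8 to 87.7 and 116. Ifi44 had the largest change of the list, from 0.996 and 0.546 RPM to 22.0 and 23.1 (log2 change 4.88, adjusted p = 0.00309, and 0.0783 with groups from the descriptions). The count of 22 was 18 without either control and 20 without either Myc_KO library. The T cell markers without Thy1 and Lck, and the NK markers, also summed higher in the same 2 libraries. Their part in this result was not tested.

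Genes of killer lymphocytes were among the largest rises. Gzmb, granzyme B, was at 2.18 and 1.21 RPM in the controls and at 127 and 79.7 in Myc_KO (log2 change 5.92, SE 0.409, adjusted p = 5.61e-05), and Gzma at 2.61 and 0.667 against 64.7 and 38.4. Granzyme genes are similar in sequence, so reads may be shared between them. Cd8a, a coreceptor of killer T cells, was at 0.996 and 1.33 RPM in the controls and at 20.9 and 10.2 in Myc_KO. In these 3 genes Myc_KO replicate 1 was above replicate 2, as it was for the summed T cell and NK markers. Thy1, a T cell marker that activated mouse B cells can also express, went the other way, from 323 and 275 RPM to 75.2 and 71.1 (log2 change -2.03, SE 0.188, adjusted p = 0.000129). Among called genes that did not overlap and reached 10 RPM in 1 group, predicted and antigen receptor genes left out, Gfi1b had the highest log2 change. Gfi1b, a repressor known from red cell and platelet precursors, had 3 reads in the 2 controls together and 349 in the 2 Myc_KO libraries. That is a ratio of 111 (95% interval of counting error 37.8 to 542). Also among the 14 largest rises was Fcmr, the Fc receptor for IgM of B cells, from 11.3 and 10.9 RPM to 192 and 170 (log2 change 4.02, SE 0.264, adjusted p = 5.32e-05). The membrane proteins Ms4a4c and Ms4a6c, relatives of CD20, rose from 14.8 and 13.6 to 306 and 185 and from 12.5 and 12.1 to 250 and 151. By the change in mean RPM, the largest rises were in Tmem123, a surface glycoprotein, from 874 and 888 RPM to 2000 and 1950, and in Ccnd2.

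The same 2 Myc_KO libraries were set beside those of the other knock-outs, which share the controls but are separate samples. Against Max_KO 514 genes were called (4.12%), 210 higher (1.68%) and 304 lower (2.43%) in Myc_KO. Against double_KO 57 were called (0.456%), 5 higher (0.04%) and 52 lower (0.416%). These counts rest on how the 2 disputed libraries are grouped. With groups from the descriptions they were 13 and 0, while 1421 and 1315 genes had an unadjusted p under 0.05 in that fit, and without the 2 disputed libraries they were 370 and 26. The count against Max_KO was 97 without Myc_KO replicate 1, 336 without Myc_KO replicate 2, 109 without Max_KO replicate 1 and 161 without either control. That against double_KO was 9 and 12 without double_KO replicates 1 and 2, 17 and 36 without Myc_KO replicates 1 and 2, 10 without either control, and 112 and 113 without Max_KO replicates 1 and 2. Myc was 3.54-fold lower in Myc_KO than in Max_KO, where it was at 192 and 176 RPM (log2 difference -1.82, SE 0.160, adjusted p = 0.00196), and did not differ by the test from double_KO, at 38.7 and 55.3 (log2 difference 0.16, SE 0.160, adjusted p = 0.742). Max was 4.07-fold higher in Myc_KO than in Max_KO, and 2.17-fold higher than in double_KO (adjusted p = 0.0110, and from 0.0509 to 0.0809 without either control, Myc_KO replicate 1 or either double_KO library).

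Summed over the list, transcripts of glycolysis were lowest in Myc_KO. Of the 20 genes, 12 were called lower against Max_KO, with a median log2 difference of -1.10, and 2 against double_KO, with a median of -0.86. The 12 became 3 and 7 without Myc_KO replicates 1 and 2, 6 without either control, and 18 without Max_KO replicate 2. The 2 became 0 without any 1 of the control, Myc_KO or double_KO libraries, and 14 without either Max_KO library. The 12 and 2 were 5 and 0 without the 2 disputed libraries, and 1 and 10 in fits of only the 2 groups compared. They were 16 and 10 with the title number series as a term, 2 and 0 without the variance trend, and 3 and 0 at a threshold of 0.01. Grouped by the descriptions, no gene of the list was called against either, with medians of -0.62 and 0. Both Myc_KO libraries were below all 4 other knock-out libraries in 18 of the 20. Such a count was not made over all genes, so it does not set this list apart. The sums of the list were 13200 and 8290 RPM in Max_KO and 8520 and 9000 in double_KO, between those of Myc_KO and control. Max_KO replicate 1 stood above the other 3 of these 4 libraries in 18 of the 20 genes, also without a count over all genes. Tpi1 was at 908 and 468 RPM in Max_KO and at 449 and 471 in double_KO, and was 4.51-fold lower in Myc_KO than in Max_KO (log2 difference -2.17, SE 0.249, adjusted p = 0.00560) and 3.18-fold lower than in double_KO (log2 difference -1.67, SE 0.249, adjusted p = 0.0387). Aldoc was the other gene called against both. Against double_KO, both calls were lost without any 1 of the control, Myc_KO or double_KO libraries (adjusted p from 0.0907 to 0.182).

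The ribosomal protein genes summed to 30900 and 32100 RPM in Max_KO and to 30600 and 30400 in double_KO, above both Myc_KO libraries and far below both controls. Of these 27 genes, 5 were called lower in Myc_KO against Max_KO (median log2 difference -0.24) and 0 against double_KO (median -0.21). Mitochondrial messenger RNAs summed to 28400 and 25400 RPM in Max_KO and to 23500 and 24500 in double_KO, where they overlapped with Myc_KO. None of the 22 interferon-stimulated genes was called against either knock-out, and their sums were 2850 and 3340 RPM in Max_KO and 3130 and 2750 in double_KO. The Max partner Mnt was at 79.3 and 90.9 RPM in Max_KO, above every control and Myc_KO library (log2 difference -1.53, SE 0.232, adjusted p = 0.0165, and 0.0568 without Max_KO replicate 1). Icosl, at 9.06 and 12.3 RPM in Max_KO, was 4.82-fold higher in Myc_KO (adjusted p = 0.00681), and Nfkbiz, at 52.9 and 95, was 3.32-fold higher (adjusted p = 0.0129, and 0.076 without Myc_KO replicate 1).

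Antibody genes also differed between the knock-outs. IgG1 (Ighg1) was lower in Myc_KO than in Max_KO, where it was at 1570 and 1360 RPM (log2 difference -0.84, SE 0.114, adjusted p = 0.0112), and than in double_KO, at 1480 and 1500 (log2 difference -0.87, adjusted p = 0.0232). The first call was lost without Max_KO replicate 1 (adjusted p = 0.0575) or without both disputed libraries (0.0543), and the second without both disputed libraries or any 1 of the control, Myc_KO or double_KO libraries (from 0.0509 to 0.147). Jchain was at 37.3 and 35.4 RPM in Max_KO against 281 and 260 in Myc_KO, a 7.43-fold difference (adjusted p = 0.00196), and at 137 and 261 in double_KO, which did not differ by the test. Apex1 and Ung, which act in base excision repair, were both lower in Myc_KO than in both other knock-outs. Ung was at 74.4 and 72.6 RPM in Max_KO and at 75.2 and 60.3 in double_KO, against 31.3 and 31.4 in Myc_KO (log2 differences -1.23 and -1.10, adjusted p = 0.00283 and 0.0119). Against double_KO, Ung lost its call without either control, Myc_KO replicate 1 or double_KO replicate 1 (adjusted p from 0.0564 to 0.0678), and Apex1 without Myc_KO replicate 1 (0.0509) or double_KO replicate 1 (0.0678). Without both disputed libraries neither was called against double_KO (0.0766 and 0.0651). Among called genes that did not overlap and reached 10 RPM in 1 group, Trim12a had the largest rise against Max_KO. Trim12a, an antiviral gene of a cluster on chromosome 7, was at 91.4 and 50.9 RPM in Myc_KO and at 0.441 and 0.834 in Max_KO. It was at 50.6 and 24.9 RPM in the controls and at 82.8 and 41.0 in double_KO, so the low level was that of Max_KO. Genes of this cluster are close copies of each other, so reads may be divided among them.

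In all, 54 genes were called against both other knock-outs, 50 lower and 4 higher in Myc_KO. The 54 became 10 without either control, 17 and 36 without Myc_KO replicates 1 and 2, 71 and 104 without Max_KO replicates 1 and 2, 8 and 11 without double_KO replicates 1 and 2, 25 without the 2 disputed libraries, 11 in fits of only the 2 groups compared, 8 without the variance trend, 10 at a threshold of 0.01, and 0 with groups from the descriptions. With the title number series (30s or 40s) as a term it was 264. The split moved as well, with 191 of those 264 lower in Myc_KO, 58 of the 71 and 79 of the 104. Of the 54, 34 also differed from the controls in the same direction. Leaving out predicted and antigen receptor genes, the 8 with the lowest of their highest unadjusted p were all lower. Stag3 (chromosome 5, 138280240 to 138312393), which encodes a cohesin subunit best known from meiosis, was at 4.83 and 6.04 RPM in Myc_KO and at 22.2 and 19.4 in the controls. It was at 113 and 140 RPM in Max_KO and at 73.9 and 93.4 in double_KO, so those knock-outs lay above the controls and Myc_KO below them. The log2 difference was -4.54 from Max_KO (SE 0.175, adjusted p = 4.41e-05), -3.94 from double_KO (adjusted p = 0.00014) and -1.93 from control (adjusted p = 0.000116). Ptprs, a receptor phosphatase, was at 13.7 and 9.73 RPM in Myc_KO, against 46.9 and 47.2 in the controls, 90.2 and 85.4 in Max_KO and 62.0 and 53.8 in double_KO. Derl3, which helps to remove misfolded secretory proteins, was at 14.4 and 18 RPM in Myc_KO, against 42.9 and 41.7 in the controls, 98.1 and 72.8 in Max_KO and 56.7 and 54.1 in double_KO. No Myc_KO library reached any of the other 6 in these genes, a separation that choosing them by their calls against all 3 groups favoured. Camk2a, a calcium-dependent kinase, was at 3.33 and 2.83 RPM in Myc_KO and between 16.2 and 23.9 in the other 6 libraries. Ass1, an enzyme of arginine synthesis, was at 25.5 and 27.7 RPM in Myc_KO and between 53.4 and 60.6 in the others. Bcl9l, a Wnt cofactor, was at 50.7 and 54.5 against 83.6 to 102. In these 3 genes the other knock-outs lay near the controls. Atp11a, a lipid flippase, and Ttc21a were lowest in Myc_KO (32.7 and 28.2 RPM, and 1.96 and 1.76), between in the other knock-outs and highest in the controls (138 and 155, and 19.5 and 18.2).

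With groups from the descriptions, 6 of these 8 genes were no longer called against control: Stag3 (adjusted p = 0.948), Ptprs (0.528), Derl3 (0.507), Camk2a (0.233), Ass1 (0.222) and Bcl9l (0.155). Atp11a and Ttc21a still were. Stag3, Ptprs, Camk2a and Atp11a kept their calls against both knock-outs without any 1 library. Against double_KO, the call of Derl3 was lost without double_KO replicate 1 (adjusted p = 0.0601) and that of Ass1 without double_KO replicate 2 (0.0597). Those of Bcl9l and Ttc21a were lost without either control, Myc_KO replicate 1 or either double_KO library (from 0.0509 to 0.107), and that of Ttc21a also without Myc_KO replicate 2 (0.0547). Without both disputed libraries these 2 calls were lost as well (0.0939 and 0.118).

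Of the genes higher in Myc_KO than in both knock-outs, Max was one. The others were Pcmtd1, at 111 and 113 RPM in Myc_KO against 59.8 and 62.9 in Max_KO, 68.5 and 59.5 in double_KO and 39.8 and 44 in the controls, the histone variant gene H2afv, at 78.5 and 74.6 against 40.9 and 47.3, 45.4 and 45.6 and, in the controls, 88.2 and 96.3, and Dennd3, at 84.7 and 88.7 against 43.6 and 47.3, 59.9 and 52.0 and, in the controls, 58.0 and 60.3. The calls of all 4 against double_KO were lost without either control, Myc_KO replicate 1, either double_KO library or both disputed libraries (adjusted p from 0.0509 to 0.232). Without Myc_KO replicate 2, those of Pcmtd1 (0.0771), H2afv (0.0768) and Dennd3 (0.131) were lost too. Against Max_KO, H2afv lost its call without Myc_KO replicate 1 (0.0589).

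**Figure D5:**
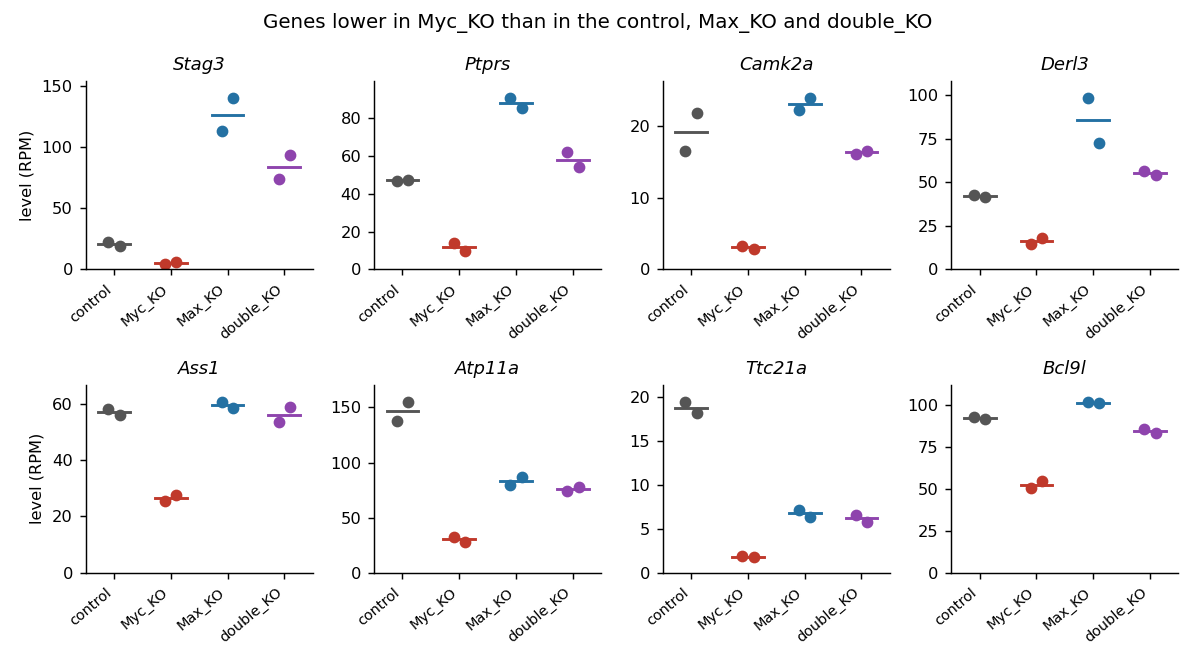
Levels of 8 genes called lower in Myc_KO than in all 3 other groups, in each of the 8 libraries (RPM, linear axes from 0). They are those with the lowest of their highest unadjusted p among 34 genes called against all 3 in the same direction. Points are libraries and bars are means of 2 libraries. Both Myc_KO libraries lie below the other 6 in every panel, in genes chosen by their calls.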

How the data were processed

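RNA of 8 libraries was sequenced on an Illumina HiSeq 2500, and the 4 libraries of Myc_KO and control are compared here. The deposited values are log2 of estimated reads per 1000000 of effective library size, with 0.5 added to the reads, and range from -5.23 to 14.51. The submitters' processing notes name CASAVA 1.8, cutadapt, RSEM 1.2.3 and the build GRCm38. No source used here gives their order, the gene annotation, the scaling method or the strand setting, so reads of overlapping or antisense genes cannot be told apart. Reads were recovered from the deposited log2 values with each library's lowest value as 0 reads, and came out as multiples of 0.01 within 0.0002 of a read. RPM in the text is recovered reads over effective size.

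Of the 15681 genes, 15622 had a symbol. Genes at a log2 value of 0 or more in at least 2 libraries were fitted with limma 3.58.1 (R 4.3.3, eBayes with a trend, 4 residual and 4.23 prior degrees of freedom), on all 8 libraries in 4 groups, with Benjamini-Hochberg adjustment over 12489 genes, two-sided, at a threshold of 0.05. No replicate block was used, and the fit was tested on simulated data. No 2 libraries held identical values, and replicates differed by more than sampling noise. Lists (39) are described by counts and medians. From each list, at most 6 called genes of lowest adjusted p were named, and genes of known role. Other genes named are the extremes (14 each way) of log2 change among called genes that do not overlap and reach 10 RPM in 1 group. By the same rule the 6 most extreme against each other knock-out are named. The 8 largest changes in RPM in each direction among called genes are named too. So are the 8 with the lowest of their highest unadjusted p among genes called against all 3 groups in the same direction. Predicted genes, antigen receptor segments and genes without a symbol were left out of these rankings. A few genes that these rules name are not reported here. Members and lists were chosen with earlier results of these data known. Intervals of read ratios cover counting error only. Promoters are from RefSeq (GRCm38.p6). Tables used Python 3.11.15, pandas 2.3.3 and numpy 2.4.6, and plots matplotlib 3.10.9. The alternatives were 22 other settings of filter, scaling, offset, grouping, libraries, variance model, title number series and threshold.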

Additional observations from a re-analysis of the deposited data

How the results depend on the processing

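No list median described here changed sign in any of the 22 alternatives. Of the genes still called against control, none was called in the opposite direction in any alternative but quantile normalization, where 2 were. Leaving out 1 library at a time gave 3397 to 5612 called genes against control (1977 to 2956 higher, 1420 to 2662 lower, 1515 to 2072 of at least 2-fold), 97 to 527 against Max_KO and 9 to 113 against double_KO. With groups from the descriptions, 5117 genes were called against control, 4551 of them shared with the titles' grouping, and 13 were called against Max_KO and 0 against double_KO. With the replicate block of the description numbers these 2 counts were 45 and 0, with 1891 and 1708 genes at an unadjusted p under 0.05. Deviations of libraries with the same description number, taken within the description groups, had correlations of -0.08 to 0.35 between groups. The 0.35 was between the description groups Myc_KO and double_KO, each of which holds a double_KO and a Myc_KO library by title. It thus includes the difference between those title groups and does not measure pairing. The numbers were not taken as pairs, and the titles give no replicate number. Without the 2 libraries whose labels disagree, 26 genes were called against double_KO. With only the 2 groups compared in the fit, the counts were 56 against Max_KO and 33 against double_KO, and without the variance trend 136 and 9. With the title number series (30s or 40s) as a term they were 1302 and 291, and 6427 against control; both controls are of the 30s and each knock-out has 1 of each. At a threshold of 0.01, 3516 genes were called against control (1964 higher, 1552 lower), 72 against Max_KO and 10 against double_KO. The cause of these shifts was not tested.

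Genes with a change of sign were not called in either setting except as given. With groups from the descriptions, with or without the replicate block, the log2 change was -0.28 for Max, -0.23 for Jchain and 0.35 for Ung. With every library scaled to its total it was 0.11 for Ighm, 0.11 for Odc1 and 0.02 for Slc16a1, and after quantile normalization 0.42 for Ighm (adjusted p = 0.0356). Without the 2 disputed libraries, and without Myc_KO replicate 2 alone, it was 0.02 for Ighm and -0.15 for Mnt. Leaving out 1 library gave a range of -0.22 to 0.15 for Odc1, -0.09 to 0.02 for Ighm and -0.15 to 0.59 for Mnt, and Odc1 was at 0.02 without control replicate 1. With 2 libraries in a group, a change that only 1 library shows cannot be told from its spread, and genes near 1 RPM rest on few reads.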
